A study of Mus musculus with 4 samples.

Results

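Metallothioneins are small cysteine-rich proteins that bind zinc and copper. The 4 mouse metallothionein genes (Mt1, Mt2, Mt3 and Mt4) were followed here together with Mtf1, which encodes the zinc-sensing transcription factor that drives Mt1 and Mt2, and Slc30a1, which encodes a zinc exporter of the plasma membrane. These 6 genes were taken by symbol from the 28250 genes listed in each library, and all 6 were listed and passed the filter on low values. The libraries were made from poly(A)-selected RNA of TBV2 mouse embryonic stem cells (ESCs), a feeder-dependent 129/SvP line. Cells had been kept for 24 h with solvent (2 libraries) or with 5 µM MS-275 (2 libraries), an inhibitor of class I histone deacetylases. All cells were grown with the cytokine LIF, which prevents differentiation, on a feeder layer and on gelatin-coated plates. RNA of feeder cells can therefore be present in any library. The solvent of the RNA-seq controls was not resolved: the paper names DMSO for its differentiation assay, while the alignment files of the controls carry ETOH in their names. In such bulk samples, fewer cells of a type and less RNA per cell cannot be told apart.

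Zinc released in the cell lets the zinc fingers of MTF-1 bind short metal response elements in front of Mt1, Mt2 and Slc30a1, so that zinc storage and zinc export rise together when metal is in excess. Mt1 and Mt2 also respond to glucocorticoids, oxidants and other stresses, and are active in most tissues. Mt3 is known from neurons and Mt4 from stratified epithelia, and neither is a classical metal-inducible gene.

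The 4 metallothionein genes lie side by side on chromosome 8 within 43.1 kb (mm9) and are all read from the same strand, in the order Mt4, Mt3, Mt2 and Mt1. Mt4 (Entrez 17752) was annotated at chr8:96661104-96662931, Mt3 (17751) at chr8:96676507-96678048, Mt2 (17750) at chr8:96696518-96697467 and Mt1 (17748) at chr8:96702989-96704225. Mtf1 (17764) lies at chr4:124479348-124527044 and Slc30a1 (22782) at chr1:193730646-193737126, both on the plus strand. Short sequences around the gene starts are shown first, since MTF-1 acts through such elements. The core of the metal response element was searched as TGCACNC or TGCGCNC on both strands in the 500 bases centred on each annotated start. No overlap of cores was seen in the 6 windows. Sequences are from the mm9 genome, 5′ to 3′ on the strand given, with the core in capitals.

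Mt1, chr8:96702962-96702976, plus strand: gctgTGCACACtggc
Mt1, chr8:96702987-96703001, plus strand: gctcTGCACTCcgcc
Mt1, chr8:96703069-96703083, minus strand: ggttTGCACCCagca
Mt1, chr8:96703005-96703019, plus strand: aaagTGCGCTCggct
Mt1, chr8:96703083-96703097, plus strand: ccttTGCGCCCggac
Mt2, chr8:96696291-96696305, plus strand: cctcTGCACCCggcc
Mt2, chr8:96696464-96696478, minus strand: agccTGCACACgccc
Mt2, chr8:96696572-96696586, minus strand: cgccTGCACACgccc
Mt2, chr8:96696591-96696605, minus strand: accaTGCACGCgccc
Mt2, chr8:96696386-96696400, plus strand: ccttTGCGCTCagct
Mt2, chr8:96696518-96696532, minus strand: ggccTGCGCACgacc
Mt2, chr8:96696625-96696639, plus strand: ctttTGCGCTCgacc
Mt3, chr8:96676530-96676544, plus strand: gcagTGCACACacac
Mt3, chr8:96676557-96676571, minus strand: cctaTGCACGCacag
Mt3, chr8:96676589-96676603, plus strand: tgctTGCGCGCcccc
Mt4, chr8:96661009-96661023, minus strand: gcccTGCACACggcc
Slc30a1, chr1:193730613-193730627, minus strand: gcttTGCACTCggaa
Slc30a1, chr1:193730686-193730700, minus strand: cgacTGCGCTCggcc

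Of the 22380 windows around protein-coding gene starts searched in the same way, 42.8% held such a core. Mt2 held 7, as many or more than which were found in 0.0536% of windows. Mt1 held 5, reached by 0.585% of windows. Both are thus at the far end of the distribution. Mt3 held 3 (6.04% of windows), Slc30a1 held 2 (16.4%) and Mt4 held 1 (42.8%), while the window of Mtf1 held none. A match is a string of letters and not a shown binding site. The core of the antioxidant response element, searched as TGACNNNGC, was present in 19.8% of windows and was found at 3 of the 6 starts.

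Mt1, chr8:96703037-96703053, plus strand: cgcgTGACTATGCgtgg
Mt2, chr8:96696435-96696451, plus strand: ggtgTGACTCAGCgcgg
Slc30a1, chr1:193730574-193730590, minus strand: agcgTGACAAGGCcccg

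Distances from the start depend on the annotation. The annotated first exons of Mt1 and Mt2 begin 222 and 230 bases before the coding sequence. Their first 150 bases held 6.60 to 35.9% of the first-exon alignments of Mt1 and 3.02 to 41.5% of those of Mt2, so that most first-exon alignments in every library lay nearer to the coding sequence. Several of the cores printed for Mt1 and Mt2 fall in these thinly covered bases.

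**Figure D1:**
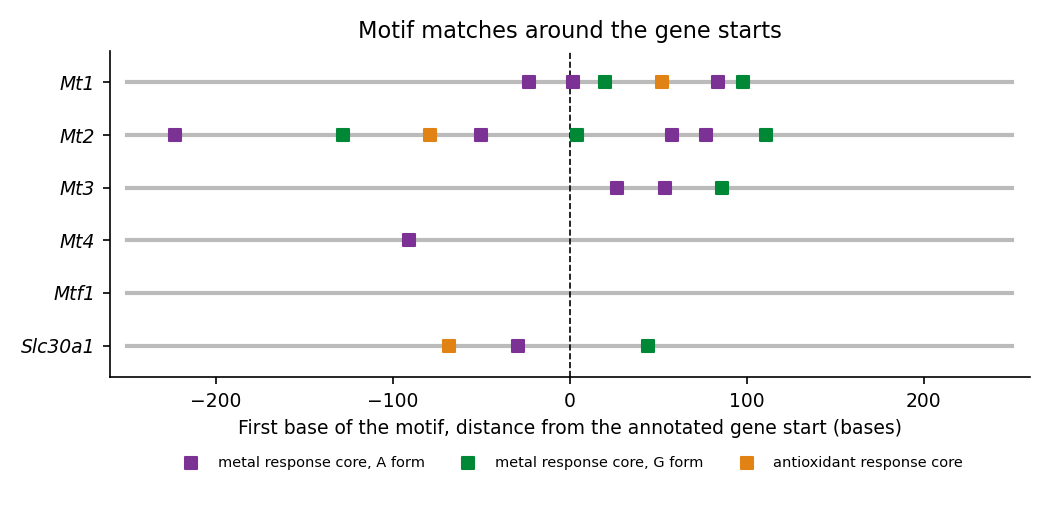
Position of each motif match around the annotated start of the 6 genes. The x axis gives the distance of the first motif base from the start in bases, grey lines are the 500-base windows, and squares are matches on either strand (purple and green, metal response cores; orange, antioxidant response core). Mt2 holds 7 metal response cores and Mt1 holds 5, against 0 for Mtf1.

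The libraries were compared in normalized expression values, a signal per gene with no stated formula. Summed over all genes it was 2490 and 3629 in solvent replicates 1 and 2, and 2493 and 4359 with MS-275. The authors' headers mark replicate 1 of both conditions as the older one, and genes deviated together in samples of the same number (r = 0.764 over 20336 genes). Replicates were therefore also fitted as pairs, with the replicate number as a block. The 8 embryonic stem cell markers (Pou5f1, Nanog, Sox2, Zfp42, Esrrb, Klf4, Tdgf1 and Dppa5a) were all detected in every library. All 8 were lower with MS-275 in both replicate pairs, as were 5397 of the 20336 genes tested. In pair 1 the log2 change was slight for Dppa5a (-0.0017) and Zfp42 (-0.061). The 8 markers had a median log2 fold change of -0.47, and their summed value was 5.08 and 22.2 with solvent and 4.26 and 13.4 with MS-275. With the block Esrrb (-1.34, adjusted p = 0.00844, limma) and Pou5f1 (-0.95, adjusted p = 0.0473) passed as lower, 25.0% of this list against 6.46% of all genes. Of 12 fibroblast markers that feeder cells could bring, 5 of 11 tested passed as higher with the block (45.5%, against 21.0% of all genes) and none as lower, led by Col1a1 (log2 fold change 2.41, adjusted p = 5.60e-05, limma) and Pdgfrb (1.20, adjusted p = 0.00704). The summed value of the fibroblast list was 1.57 and 2.87 with solvent and 1.70 and 2.49 with MS-275, and 1 or 2 of the 12 were at 0 or under 0.001 in each library. On all alignments with the block, 4 of the fibroblast markers rose (36.4%, against 20.3% of all genes in that fit) and 3 fell (27.3%, against 15.1%). Whether the 2 marker lists bear on the metallothionein values was not tested.

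All 4 metallothionein genes had higher values with MS-275 than with solvent in replicate pair 1 and in replicate pair 2, by 1.63-fold to 13.7-fold, while Mtf1 and Slc30a1 stayed within 1.47-fold of solvent. With the replicate block, 4 of the 6 genes (Mt1, Mt2, Mt3 and Mt4) passed as higher and none as lower, where 21.0% of the 20336 genes tested passed as higher and 6.46% as lower (limma, Benjamini-Hochberg adjusted p under 0.05). Without the block, none of the 6 passed, where 0.00492% of genes did, a single gene (Mt3 and Mt4 had an unadjusted p under 0.05, as had 2974 higher and 564 lower genes). Their median log2 fold change was 2.08, against 0.20 over all genes tested. Median-ratio scaling brought that overall median to -0.01 and quantile normalization to -0.03, so the change of a gene is best read against it.

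Mt1, a main zinc-storing protein of most cells, had a value of 0.524 and 1.62 in solvent replicates 1 and 2, and of 1.01 and 18.4 in MS-275 replicates 1 and 2. The groups overlapped, because solvent replicate 2 was above MS-275 replicate 1. Within pairs the value was 1.92-fold higher in replicate 1 and 11.3-fold higher in replicate 2. The solvent mean was 1.07 ± 0.778 and the MS-275 mean 9.71 ± 12.3 (SD, n = 2 each). The log2 fold change on the log2(value + 0.005) scale, which holds for all that follow, was 2.22. Its adjusted p was 0.00519 with the block (SE 0.52) and 0.601 without it (SE 1.68, limma). By rank among all genes of its library, Mt1 was 719th and 322nd in solvent replicates 1 and 2, and 17th and 11th with MS-275, so that the groups were separate by rank. Without MS-275 replicate 2, the unblocked log2 fold change was 0.12, and without MS-275 replicate 1 it was 4.31.

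Mt2, the neighbour and closest partner of Mt1, followed the same order of libraries. Its value was 0.573 and 2.94 in solvent replicates 1 and 2, and 0.933 and 27.2 with MS-275. Solvent replicate 2 again exceeded MS-275 replicate 1. Within pairs it was 1.63-fold and 9.27-fold higher, and the mean rose from 1.75 ± 1.67 to 14.1 ± 18.6 (SD, n = 2 each). On the log2 scale this was a change of 1.95 (adjusted p = 0.0167 with the block, SE 0.56, and 0.751 without it, SE 2.08, limma). Without MS-275 replicate 2 it reversed to -0.48. Mt2 ranked 494th and 109th of all genes with solvent, and 23rd and 4th with MS-275.

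Replicates of the same group also differed several-fold for these 2 genes. Replicate 2 exceeded replicate 1 by 3.10-fold for Mt1 and 5.12-fold for Mt2 in solvent, and by 18.3-fold and 29.2-fold with MS-275. Other genes of high value did so too, as Dppa5a (0.293 and 5.51 in solvent replicates 1 and 2) and Ftl1 (0.340 and 4.32). Klf4 did not (0.336 and 0.348). A value of 1.01 ranked 17th in MS-275 replicate 1, and 18.4 ranked 11th in MS-275 replicate 2. The highest values thus spanned unlike ranges in the 2 replicates. No single scale covers this, as Ftl1 and Klf4 were alike in solvent replicate 1 and far apart in solvent replicate 2. The folds of Mt1 and Mt2 in the 2 pairs are therefore not directly comparable. The ratio of Mt1 to Mt2 within a library moved less, being 0.914 and 0.553 with solvent and 1.08 and 0.677 with MS-275. This is a log2 difference of 0.26 (two-sided exact permutation p = 0.667, where 2 against 2 libraries cannot go below 0.333). Within pairs the ratio was 1.18-fold and 1.22-fold higher with MS-275, which the permutation, being unpaired, does not use. It turned to -0.10 without solvent replicate 2 and to -0.07 without MS-275 replicate 1, which breaks a pair.

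Mt3, the metallothionein first known as a growth inhibitory factor of brain, started from a far lower level. It had values of 0.0238 and 0.0556 with solvent and of 0.140 and 0.395 with MS-275. The groups did not overlap, with MS-275 above solvent in both pairs by 5.90-fold and 7.10-fold. The solvent mean was 0.0397 ± 0.0225 and the MS-275 mean 0.268 ± 0.180 (SD, n = 2 each). The log2 fold change was 2.53 (adjusted p = 3.69e-06 with the block, SE 0.24, and 0.0713 without it, SE 0.58, limma). Unlike those of Mt1 and Mt2, the folds of the 2 pairs were close. Without solvent replicate 2, the unblocked log2 fold change was 3.07, and it ran from 1.80 to 3.26 as each library was left out in turn.

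Mt4, the metallothionein of stratified epithelia, was the lowest of the 6 in solvent. It had values of 0.0131 and 0.0109 with solvent and of 0.0683 and 0.150 with MS-275. The groups did not overlap, and the pairs gave 5.22-fold and 13.7-fold. Its mean was 0.0120 ± 0.00153 in solvent libraries and 0.109 ± 0.0575 in MS-275 libraries (SD, n = 2 each). The log2 fold change was 2.65 (adjusted p = 3.37e-05 with the block, SE 0.32, and 0.0735 without it, SE 0.61, limma). Mt3 and Mt4 both passed without the block when genes with a mean value under 0.01 were left out (adjusted p = 0.0266 and 0.0453, limma). The number of genes tested fell to 14740 there, of which 466 passed as higher and 65 as lower.

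Mtf1, the metal-sensing activator of Mt1 and Mt2, had values of 0.103 and 0.116 with solvent and of 0.151 and 0.119 with MS-275. The groups did not overlap, but solvent replicate 2 and MS-275 replicate 2 were only 1.03-fold apart. The log2 fold change was 0.29 (adjusted p = 0.380 with the block and 0.819 without it, limma), from a mean of 0.109 ± 0.00925 to 0.135 ± 0.0225 (SD, n = 2 each). Among the 6 genes, groups did not overlap and MS-275 was higher for 3 (Mt3, Mt4 and Mtf1), and this held for 32.3% of all genes tested. Counted as higher in both pairs, 5 of the 6 compare with 50.0% of all genes.

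Slc30a1, the zinc exporter that is a known target of MTF-1, had values of 0.183 and 0.279 with solvent and of 0.171 and 0.301 with MS-275. Its 2 groups overlapped and the pairs went in opposite directions, with 0.936-fold and 1.08-fold. Its solvent mean was 0.231 ± 0.0683 and its MS-275 mean 0.236 ± 0.0922 (SD, n = 2 each). The log2 fold change was 0.01 (adjusted p = 0.984 with the block, SE 0.22, and 0.997 without it, SE 0.43, limma), and it was slightly negative under the other scalings, down to -0.27 after median-ratio scaling.

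**Figure D2:**
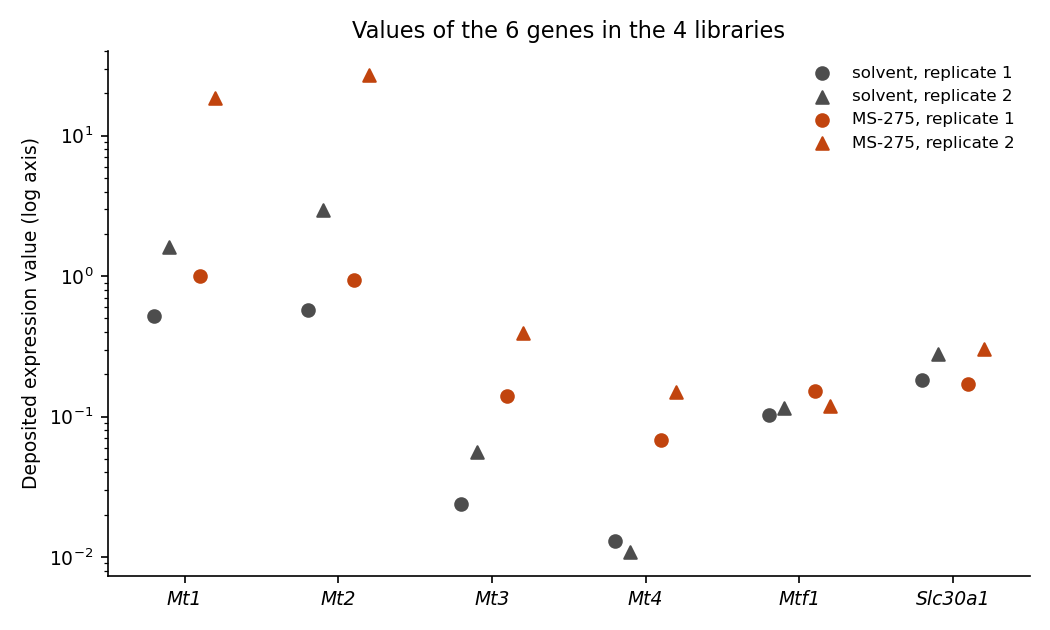
Deposited expression value of each of the 6 genes (y axis, log scale) in the 4 libraries. Grey marks are solvent and orange marks MS-275, circles are replicate 1 and triangles replicate 2. Mt3 and Mt4 separate by treatment, while for Mt1 and Mt2 solvent replicate 2 lies above MS-275 replicate 1 and MS-275 replicate 2 stands far above all others.

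The order of the mean values in solvent was Mt2, Mt1, Slc30a1, Mtf1, Mt3 and Mt4. Mt2 and Mt1 were not separated by their ranges, although Mt2 was higher in each of the 2 libraries. With MS-275 the order was Mt2, Mt1, Mt3, Slc30a1, Mtf1 and Mt4, with the mean of Mt3 above those of Mtf1 and Slc30a1. This held in MS-275 replicate 2 alone, since Mt3 was below both in MS-275 replicate 1. The neighbours Mt2 and Mt1, Mt3 and Slc30a1, and Mtf1 and Mt4 were not separated there. Across genes, the deposited values followed alignments per kilobase of exon more closely (r = 0.910 to 0.924, taken with the opposite replicate of the same condition) than alignments in total (0.845 to 0.849). In solvent replicate 1, alignments per kilobase of exon and 1000000 deposited alignments (RPKM) were 220 for Mt2, 98.8 for Mt1, 25.3 for Slc30a1, 5.70 for Mt3, 3.86 for Mtf1 and 1.20 for Mt4. The same measure in solvent replicate 2 was 46.7, 34.3, 18.0, 1.71, 5.03 and 1.31, respectively, so that Mt3 and Mtf1 changed places between the replicates. The exon length used for Mt1 was 753 bases, which counts a transcript that keeps the last intron. The exons of its principal transcript have 250, 66 and 224 bases. This lowers the RPKM of Mt1 beside that of Mt2.

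The deposited alignments gave a second view of the same libraries. These are single reads of 35 bases on mm9, 9785619 to 23467935 per library. In the files of replicate 1, 53.2 and 54.4% of the alignments repeated a position already listed on the same strand, and in the files of replicate 2 none did. Within each condition, values correlated better across genes with the alignments of the opposite replicate number (r = 0.910 to 0.924 per kilobase) than with those of the same number (0.785 to 0.879). With alignments not divided by length, the replicate 1 values instead correlated better with those of the same number (0.873 against 0.845 with solvent and 0.884 against 0.845 with MS-275). The crossing stays inside the treatment groups, but the replicate with the larger change of Mt1 and Mt2 differs between values and alignments. An exchange of files and a different handling of repeats were not told apart. Replicate numbers in this text are those of the deposited files.

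On the exons of Mt1, solvent replicates 1 and 2 held 1746 and 253 alignments and MS-275 replicates 1 and 2 held 15585 and 516. In RPKM these are 10.5-fold more in replicate 1 and 1.83-fold more in replicate 2. For Mt2 the counts were 2870 and 254 with solvent and 22248 and 480 with MS-275, which gives 9.09-fold and 1.69-fold. Both genes were thus higher with MS-275 in both replicates, with a large and a small fold as in the values, in the opposite order. When every position and strand was counted a single time, the replicate 1 folds came down to 2.27-fold for Mt1 and 1.90-fold for Mt2, close to those of replicate 2. For such short and abundant genes this way of counting has a ceiling. Positions already occupied were 32.2% of all those possible on the exons of Mt2 in solvent replicate 1 and 50.9% in MS-275 replicate 1. Each occupied position was hit 8.02 times there with solvent and 39.3 times with MS-275. The size of the Mt1 and Mt2 change thus depended on how repeated reads were treated, and its direction did not.

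Mt3 had 72 and 9 alignments in solvent replicates 1 and 2, and 436 and 84 with MS-275. This was 7.10-fold and 8.37-fold in RPKM, and 3.75-fold in replicate 1 over distinct positions. Mt4 had 11 and 5 with solvent, and 126 and 22 with MS-275, a fold of 13.4 and of 3.94, and of 7.87 in replicate 1 over distinct positions. The lower counts of Mt4 and of Mt3 in solvent replicate 2 leave these folds imprecise. Mtf1 rested on 723 and 393 alignments with solvent and on 776 and 746 with MS-275 (1.26-fold and 1.70-fold). Slc30a1 had 2840 and 843 with solvent and 2428 and 939 with MS-275, or 25.3 and 18.0 against 25.4 and 18.0 RPKM, the flattest of the 6.

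Fitted with limma-voom and the replicate block, Mt1, Mt2, Mt3 and Mt4 passed on all alignments, where 20.3% of 17317 genes passed as higher and 15.1% as lower. The log2 fold changes were 1.81, 1.60, 2.66 and 2.89, respectively. They also passed on distinct positions, at 0.91, 0.72, 2.10 and 2.45, where 24.0% of 16994 genes passed as higher and 20.2% as lower. Mtf1 passed there too (0.41, adjusted p = 0.0358), and in none of the other fits. Without the block none of the 6 passed on all alignments, where no gene passed at all (unadjusted p under 0.05 for 2387 higher and 1052 lower genes, 2 of the 6 among the higher). Without it, none passed on distinct positions either, where 12.4% of genes did as higher and 7.68% as lower. At an unadjusted p under 0.05, 4 of the 6 were higher, as were 3482 of 16994 genes (2612 were lower).

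The metallothionein sequences are similar to each other, so reads could in principle be shared with copies elsewhere. Of the 35-base reads that can start on the exons, 11 of 556 for Mt2 (1.98%) had an exact copy elsewhere in the mm9 genome, and none for the other 5 genes. These 11 positions carried at most 2 alignments in any library. Reads came from both strands, 40.0 to 58.9% of them in the sense of Mt1 or Mt2, so transcripts of the opposite strand cannot be told apart.

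Introns of Mt1 and Mt2 were also covered more with MS-275. Alignments in the introns of the principal Mt1 transcript numbered 49 and 10 in solvent replicates 1 and 2, and 709 and 88 with MS-275. This was 2.09 and 1.02 per 1000000 deposited alignments with solvent and 35.4 and 8.06 with MS-275, a rise of 17.0-fold and 7.89-fold in the 2 replicates. The groups did not overlap. In the introns of Mt2, the counts were 36 and 14 with solvent and 410 and 51 with MS-275, or 13.4-fold and 3.27-fold relative to depth. Counting each position and strand a single time, the replicate 1 folds of the introns were 6.46-fold for Mt1 and 4.58-fold for Mt2. Intron alignments thus changed by more than the exon alignments of the same files in both replicates and both genes, with either way of counting. The ceiling on exon positions can lower the exon folds over distinct positions and in replicate 2, whose files list each position a single time. All alignments of replicate 1 have no such ceiling. There the intron folds were 17.0 for Mt1 and 13.4 for Mt2, against exon folds of 10.5 and 9.09.

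As a share of the alignments in exons and introns, the Mt1 introns held 2.75% (exact 95% binomial interval 2.04 to 3.62) and 3.86% (1.87 to 6.99) with solvent. With MS-275 they held 4.39% (4.08 to 4.72) and 15.4% (12.5 to 18.6). These intervals cover counting error only. The share was higher with MS-275 in both replicates, by 6.58 percentage points on average (two-sided exact permutation p = 0.333, the smallest that 2 against 2 can give), and by 1.09 points without MS-275 replicate 2. For Mt2 the share was 1.24 and 5.22% with solvent and 1.81 and 9.60% with MS-275, a mean difference of 2.48 points (p = 0.667, two-sided exact permutation test) that turned to -1.42 without MS-275 replicate 2, which breaks a pair, while the share was higher within both pairs. Over distinct positions the mean difference was 14.4 points for Mt1 and 6.25 points for Mt2 (p = 0.333 each, two-sided exact permutation test). The ceiling on exon positions can raise the shares in replicate 2 and over distinct positions. On all alignments of replicate 1, the share went from 2.75 to 4.39% for Mt1 and from 1.24 to 1.81% for Mt2. A further annotated transcript of Mt1 keeps its last intron, so part of these reads may belong to an exon of that form. That intron adds few alignments, since with it the exons held 1746 and 253 with solvent and 15585 and 516 with MS-275. Without it they held 1733 and 249, and 15435 and 484, respectively. Most of the Mt1 intron reads in each library thus lay in the first intron. Mtf1, with long introns, had 21.2 to 24.4% of its alignments in introns in all 4 libraries. For Mt3 the intron counts of 1, 7, 10 and 14 were too few to compare, and Mt4 had 1 intron alignment in all.

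**Figure D3:**
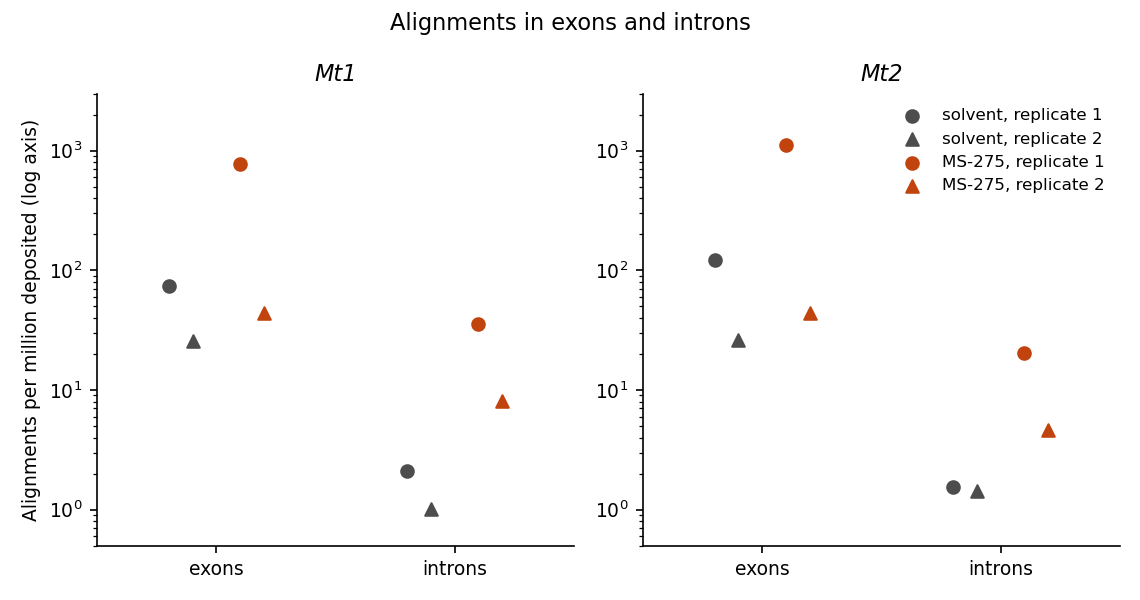
Alignments in exons and introns of the principal transcripts of Mt1 and Mt2 per 1000000 deposited alignments (y axis, log scale) in each library. Grey marks are solvent, orange marks MS-275, circles replicate 1 and triangles replicate 2. Within each replicate MS-275 lies above solvent in exons and introns, and the intron values of the 2 groups do not overlap.

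The rest of the cluster held few reads. In the 1 kb past the end of Mt1, 1 alignment was found in each solvent library, against 36 and 6 in MS-275 replicates 1 and 2. The 13575 bases between Mt4 and Mt3 held 0 and 2 alignments with solvent and 33 and 2 with MS-275. The 18469 bases between Mt3 and Mt2 held 20 and 5 with solvent and 38 and 10 with MS-275, and the 5521 bases between Mt2 and Mt1 held 14 and 4 with solvent and 40 and 12 with MS-275. Reads were thus far fewer between the genes than on Mt1 and Mt2.

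**Figure D4:**
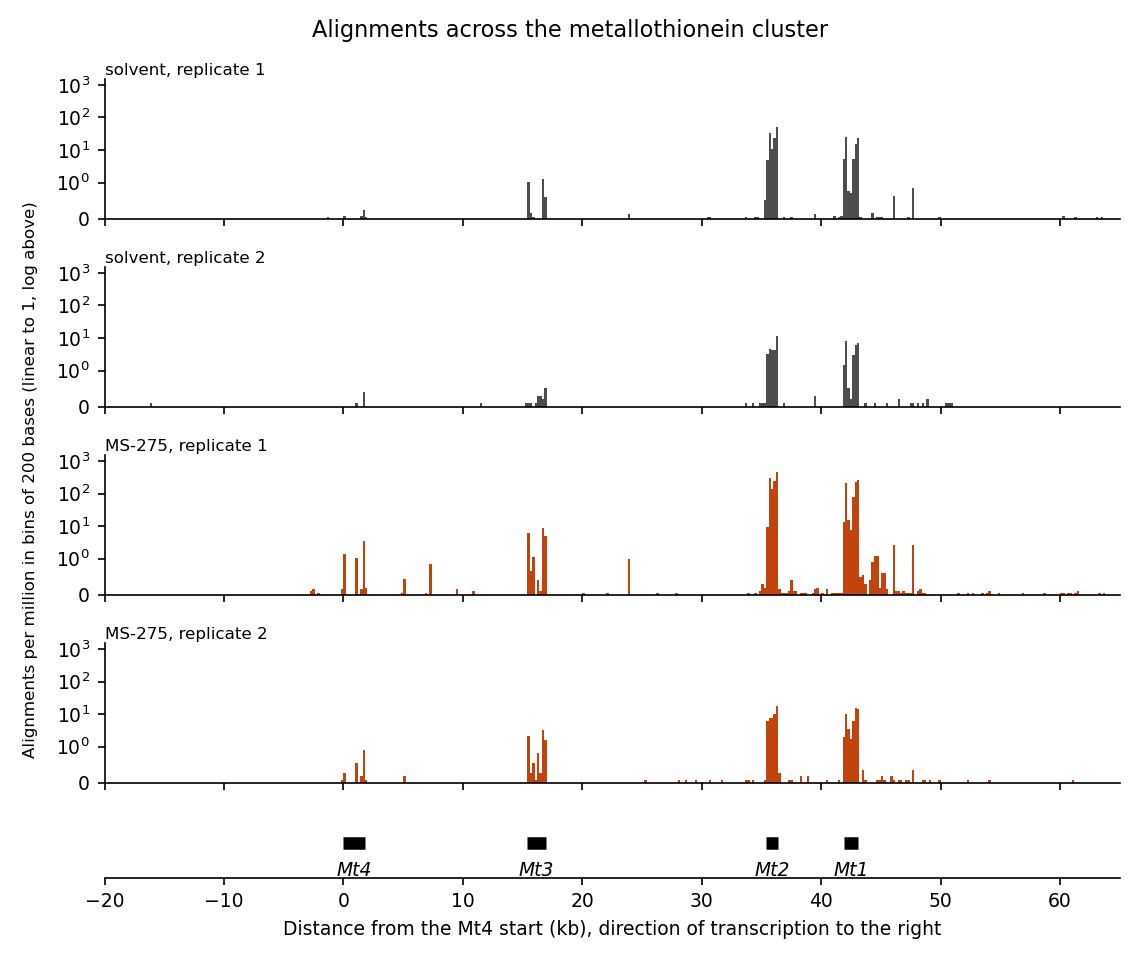
Alignments per 1000000 in bins of 200 bases across the metallothionein cluster for each library (y axis linear to 1 and logarithmic above), by distance from the Mt4 start in kb; black boxes at the bottom are the 4 genes. Signal over Mt4 and Mt3 is taller in both MS-275 libraries, and MS-275 replicate 1 shows a run of low bins behind Mt1.

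The next genes outside the cluster did not move past the threshold. With exons within 100 kb these were Nup93 (a nuclear pore protein), 34.3 kb behind Mt1, and Bbs2 (a cilium protein) and Ogfod1 (an oxygenase acting on the ribosome), 38.4 and 69.3 kb before Mt4. At an unadjusted p under 0.05 (limma with the block), 1 of the 3 was higher, where 5876 of 20336 genes were. None of these 3 neighbours passed with the block by limma, where 21.0% of all genes passed as higher and 6.46% as lower. None passed in the fits of alignments either. With the block, 20.3% of genes were higher and 15.1% lower on all alignments, and 24.0% and 20.2% on distinct positions. With only 3 genes, an absence of calls says little about the region. Their log2 fold changes were 0.08 for Nup93 (adjusted p = 0.824), 0.67 for Bbs2 (adjusted p = 0.0564) and -0.05 for Ogfod1 (adjusted p = 0.900).

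Other zinc transporters were measured to set Slc30a1 in context. Of 23 transporters of the Slc30 (export from the cytosol) and Slc39 (import) families, 19 were tested. With the block 5 passed as higher (26.3%, against 21.0% of all genes) and 1 as lower (5.26%, against 6.46%), and the median log2 fold change was 0.11 against 0.20. These shares are near those of all genes. Without the block none passed (limma). At an unadjusted p under 0.05 there were 4 risers and 1 faller, where 2974 of the 20336 genes tested were higher and 564 lower.

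Slc30a3, which loads zinc into synaptic vesicles, had the largest rise of the transporters, from 0.00238 and 0.00323 with solvent to 0.0390 and 0.0263 with MS-275 (log2 fold change 2.25, adjusted p = 8.65e-05, limma with the block). Its solvent values lie under the pseudocount, which dampens the fold. Slc39a8, a zinc and manganese importer, went from 0.00987 and 0.00676 to 0.0443 and 0.0269 (1.58, adjusted p = 0.00139). Slc39a10, a plasma membrane importer, was the only transporter to fall in this fit, from 0.271 and 0.245 to 0.194 and 0.0722 (-1.09, adjusted p = 0.00649). Slc30a4, Slc39a3 and Slc39a5 were the others that rose. On all alignments with the block, 7 of 21 transporters rose (33.3%, against 20.3% of all genes in that fit) and 3 fell (14.3%, against 15.1%). The risers on the deposited values were low-level genes, with no value over 0.1 in any library.

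**Figure D5:**
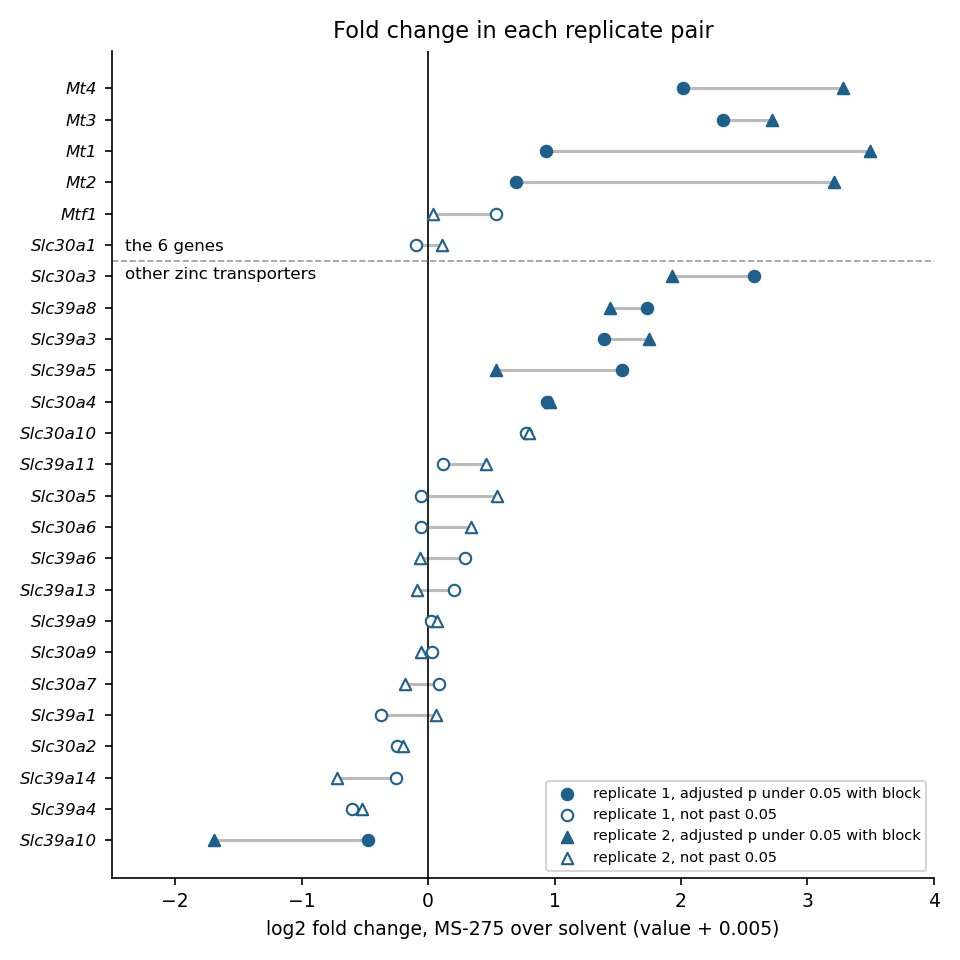
Log2 fold change of MS-275 over solvent in replicate pair 1 (circles) and pair 2 (triangles), on the log2(value + 0.005) scale, for the 6 genes (top) and the 19 other zinc transporters tested. Filled marks passed an adjusted p of 0.05 with the replicate block; the 4 metallothioneins lie right of 0 in both pairs, with wide gaps between the pairs for Mt1 and Mt2.

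Genes that handle other metals, or that share known triggers with Mt1 and Mt2, were read in the same way. None of the 7 copper genes tested passed with the block on the deposited values. At an unadjusted p under 0.05 (limma), 1 was higher, where 5876 of all 20336 genes tested were. On alignments with the block, 1 of 8 fell (12.5%, against 15.1% of all genes in that fit), which was Slc31a2, a copper transporter. Of 7 iron genes, 2 rose (28.6%, near the 21.0% of all genes). Slc40a1, the iron exporter ferroportin, went from 0.0195 and 0.0107 with solvent to 0.118 and 0.131 with MS-275 (log2 fold change 2.72, adjusted p = 1.07e-05, limma with the block). Slc11a2, an iron importer, rose by 0.83 on the log2 scale (adjusted p = 0.0269), and it did not pass on alignments.

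Of 9 oxidative and heat stress genes tested, 5 rose with the block (55.6%, against 21.0% of all genes) and none fell, with a median log2 fold change of 0.72. Hspa1a, an inducible heat shock chaperone, went from 0.00146 and 0.00366 with solvent to 0.0747 and 0.208 with MS-275 (log2 fold change 4.12, adjusted p = 1.29e-06, limma with the block). Nqo1, a quinone reductase known as a target of the antioxidant response, went from 0.0988 and 0.0610 to 0.175 and 0.214 (1.26, adjusted p = 0.00159). The other 3 were Gclc, Srxn1 and Dnajb1. On all alignments with the block, 5 of 10 rose (50.0%, against 20.3%) and 1 of 10 fell (where 15.1% of all genes did), which was Slc7a11. On distinct positions with the block, 6 of 10 rose (60.0%, against 24.0% of all genes in that fit). Gclm and Slc7a11 fell there (20.0%, against 20.2%). On the values both were lower in both pairs without passing, with log2 fold changes of -0.31 and -0.46. Of 8 glucocorticoid-responsive genes, 1 rose with the block (12.5%, under the 21.0% of all genes), which was Dusp1, a phosphatase that is also an immediate early gene (2.03, adjusted p = 6.39e-05, limma with the block). None fell on the values. Nr3c1, the glucocorticoid receptor, passed as lower on all alignments with the block (12.5%, against 15.1% of all genes in that fit). On distinct positions with the block, Nr3c1, Sgk1 and Klf9 did (37.5%, against 20.2%). No gene of these lists passed without the block on the deposited values.

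The genes with the most similar profile over the 4 libraries were looked up among the 20335 others, by the root mean square distance between centred log2 values. The nearest to Mt1 were Lgals1 (galectin-1, distance 0.165), BB287469 (0.211) and Barx2 (a homeobox factor, 0.325), and Mt2 came 4th (0.373). The nearest to Mt2 were Rpph1 (the RNA of RNase P, 0.0954), Higd1a (a mitochondrial protein, 0.347) and Tuba1a (an alpha tubulin, 0.358), and Mt1 came 4th. Each of these had its highest value in MS-275 replicate 2. Mt3 was 162nd and Mt4 665th by distance to Mt1. Among the 4 metallothioneins, the smallest distances joined Mt1 with Mt2, and Mt3 with Mt4 (0.470 apart). Mt4 was only 87th by distance to Mt3, and Mt3 248th by distance to Mt4, so many other genes lay closer to each. With only 4 libraries, such a distance is a description.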

How the data were processed

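RNA-seq of solvent and MS-275 cells (2 libraries each, 24 h, 5 µM) was grouped by the deposited titles and agent. Nothing in the labels says that the duplicates came from separate cultures, so p-values measure the spread between these samples, which may be technical. The signal values are as deposited by the authors, who mapped the reads to mm9 and obtained normalized expression values with Genomatix; the formula and the handling of repeated reads are not given in the sources used here, and the depth behind a value is unknown. The alignments, also deposited, ranged from 9785619 to 23467935 per library. The authors' 2 ratio tables, which hold 4 columns of per-sample values and fold changes, and their shorter tables were not used for values. In the ratio table of replicate 2, the solvent values of Mt1 and Mt2 look like numbers with a displaced decimal point. The full list, used here, and the shorter table of that library have the same values as each other.

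Values were tested as log2(value + 0.005) with limma 3.58.1 (trended eBayes, R 4.3.3) over all genes at 0.001 or more in at least 2 libraries (20336 genes), with Benjamini-Hochberg adjustment at 0.05. The study's methods state no test. The same fit with the replicate number as a block rests on 1 residual degree of freedom and leans on the shared prior. Pairing comes from the headers of the authors' shorter tables (deviations correlated at 0.764). In data simulated for this comparison (20336 genes, 200 of them changed by 2 on the log2 scale), the fit without the block recovered 20 and made 0 false calls, and that with the block recovered 200 and made 25. The simulated data took their pair offsets and their noise from the fit with the block. They favour that fit by design, and cannot show which fit suits the real data. Even so, the false calls with the block were a larger share of its calls than the 0.05 set for the adjustment. Alignments were assigned by their midpoint to GENCODE M1 exons that belong to a single gene and tested with limma-voom, with library sizes scaled by a trimmed mean of M values (TMM), over genes with 10 or more. Intron shares and the Mt1 to Mt2 ratio were tested by exact permutation.

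The 6 genes and all lists were chosen with earlier results of these data known. The genes named are the 6, the 2 strongest rises and falls in each list among those past the threshold with the block in both pairs, the genes within 100 kb of the cluster, and the 3 nearest profiles to Mt1 and to Mt2. Of the 83 list entries, 79 matched by symbol and 4 are not analysed here on the values. Alternatives were other pseudocounts (0.001 and 0.02), filters, scalings, the block, alignments, and each library left out.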

Additional observations from a re-analysis of the deposited data

How the results depend on the processing

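With the replicate block, 5591 genes passed on the values, 6150 with median-ratio scaling added, 5897 with quantile normalization added, 6117 on all alignments and 7510 on distinct positions. Without it 1 gene passed, and 0 with either pseudocount, no filter, median-ratio or quantile scaling, no trend or all alignments (unadjusted counts were 2153 or more higher genes in each); 4 passed at the same summed value, 531 at a mean value of 0.01 or more and 3405 on distinct positions. Leaving out a library gave 0 to 189. The block moved the split too, to 4277 higher and 1314 lower, and to 3344 and 2806 with median-ratio scaling, and to 2936 and 2961 with quantile normalization.

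With the block, the log2 fold change of Mt1 was 2.22, 1.93 after median-ratio scaling, 2.14 after quantile normalization, 1.81 on all alignments and 0.91 on distinct positions. In the same order Mt2 had 1.95, 1.67, 1.75, 1.60 and 0.72, Mt3 had 2.53, 2.25, 2.17, 2.66 and 2.10, and Mt4 had 2.65, 2.41, 2.23, 2.89 and 2.45. All of these passed, at an adjusted p of up to 0.0167 (limma). Mtf1 passed with the block on distinct positions (0.41). At a mean value of 0.01 or more without the block, Mt3 (2.53) and Mt4 (2.65) passed, where 466 of 14740 genes passed as higher and 65 as lower. With a library left out, the log2 fold change lay between 0.12 and 4.31 for Mt1, -0.48 and 4.38 for Mt2, 1.80 and 3.26 for Mt3, 2.11 and 3.19 for Mt4, 0.12 and 0.45 for Mtf1, and -0.39 and 0.41 for Slc30a1; these fits leave the pairs unbalanced and assume that the lone library varies like the others. Slc30a1 was -0.27 after median-ratio scaling, -0.059 after quantile normalization (both with and without the block), -0.12 at the same summed value, -0.16 and -0.18 on all alignments without and with the block, and -0.15 and -0.14 on distinct positions.

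The median of the zinc transporters was 0.055 with no filter, 0.085 at a mean of 0.01 or more, -0.16 after median-ratio scaling, 0.00072 after quantile normalization, -0.0077 at the same summed value, -0.12 on all alignments and -0.050 and -0.056 on distinct positions without and with the block. After median-ratio scaling the copper genes had -0.13 and the neighbours of the cluster -0.20, and the latter -0.10 and -0.11 on all alignments without and with the block. With a library left out, medians ran from -0.32 to 0.51 for zinc transporters, 0.02 to 0.19 for copper, -0.18 to 1.76 for iron, 0.45 to 1.03 for stress, -0.11 to 0.36 for glucocorticoid-responsive genes and -0.13 to 0.49 for the neighbours. The log2 difference of the Mt1 to Mt2 ratio ran from -0.10 to 0.63, and that of the intron share, in percentage points, from 1.09 to 12.1 for Mt1, -1.42 to 6.37 for Mt2, -35.5 to 6.89 for Mt3, 0.00 to 0.787 for Mt4, 0.614 to 3.10 for Mtf1 and -0.513 to 0.354 for Slc30a1. The cause of these shifts was not tested. Having 2 libraries a group limits every test without the block, and the files of replicate 2, which list each position a single time, limit the count of reads on short genes.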
